A study of Mus musculus with 6 samples.

Results

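The genes described here carry out DNA replication in S phase: they license and open replication origins, copy the strands, supply deoxynucleotides and control entry from G1 into S phase. The 39 members are a named list of mouse gene symbols, matched through Ensembl identifiers to 39 of the 57010 genes in the count table. All 39 were among the 14575 genes with enough counts to be tested. RNA was sequenced from CD45+CD90.2- cells, that is leukocytes depleted of T cells, purified from mouse heart. Both groups carry the genotype written Ova DTG in the labels, which do not expand it, and both received naive OTI cells, a line of transgenic CD8 T cells, by retro-orbital injection. In the group labelled ICI (immune checkpoint inhibition), mice received 200 μg of the CTLA-4 antibody clone 9D9 and 200 μg of the PD-1 antibody clone RPM1-14 into the peritoneum. The group labelled isotype received control antibody, in an amount the labels do not state. Each group holds 3 libraries described as biological replicates, all 6 share a single batch date, and the titles of both groups name myocarditis. The promoter and cell type that the Ova genotype relies on, the age and sex of the mice and the number of animals behind a library are not stated in the labels used here, so the p-values below measure the spread between these libraries.

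Replication proceeds in fixed steps. In G1 the origin recognition complex (Orc1 to Orc6), Cdc6 and Cdt1 load the Mcm2 to Mcm7 ring onto DNA. Cyclin-dependent and Cdc7 kinases then turn this ring into the active helicase by adding Cdc45 and the GINS complex, after which polymerases, the sliding clamp Pcna and its loader copy the strands. E2F transcription factors, released from the retinoblastoma proteins when cyclins accumulate, are known activators of many of these genes, and tissue macrophages can renew themselves by division within the heart.

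Total counts ran from 21528274 to 30736316 per library, and the members took 0.124% to 0.157% of them in the ICI libraries and 0.254% to 0.272% in the isotype libraries. Levels are in CPM, read counts scaled to 1 common library total after TMM adjustment, and a gene was called where edgeR's quasi-likelihood test gave an adjusted p under 0.05 over all tested genes. The pan-leukocyte gene Ptprc was present at 1028 to 1341 CPM in every library and was not called, and Thy1, which encodes the depleted CD90 antigen, had 0 to 2 counts. RNA of marker genes for several cell types differed with the label. Marker RNA alone does not separate the number of those cells from their RNA per cell. All 6 heart-resident macrophage markers were higher in the ICI libraries (summed CPM 7499 to 8605 against 270 to 350), as were all 5 B cell markers (186 to 608 against 4.22 to 9.16). All 5 monocyte markers were lower (491 to 781 against 4108 to 8960). Over all tested genes, 35.0% were called higher and 33.9% lower. Nos2, the inducible nitric oxide synthase of activated macrophages, named here after its values were seen, was 1.8 to 4.38 CPM in the ICI libraries and 314 to 705 CPM in the isotype libraries. Whether the labels of the groups were exchanged could not be checked from a targeted gene, since the antibodies delete none; every direction below rests on the labels and would turn if they were exchanged. The part of cell composition in the results below was not tested. In bulk RNA, fewer cells in S phase and less RNA of these genes per cell cannot be told apart.

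Nearly the whole replication set was lower in the libraries labelled ICI. Of the 39 genes, 38 were called lower, none was called higher, and Gins3 was not called. Among all tested genes 68.9% were called in either direction, 33.9% lower and 35.0% higher. Of the members, 28 were called lower by more than 2-fold, a call that 12.8% of all tested genes received. In those 38 genes every ICI library lay below every isotype library, as in 36.3% of all tested genes. The median member was 2.29-fold lower (log2 fold change -1.19, quartiles -1.53 and -0.95), where the median of all tested genes was 0.03 (quartiles -0.57 and 0.79). Scaling by upper quartiles or by library totals alone moved the median of all tested genes to 0.21 or 0.23 and that of the members to -1.01 or -0.99, with 37 members called lower under each. The split of calls over all tested genes, 4938 lower and 5102 higher, became 3849 and 6155 with upper quartiles and 3724 and 6255 with totals alone.

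**Figure D1:**
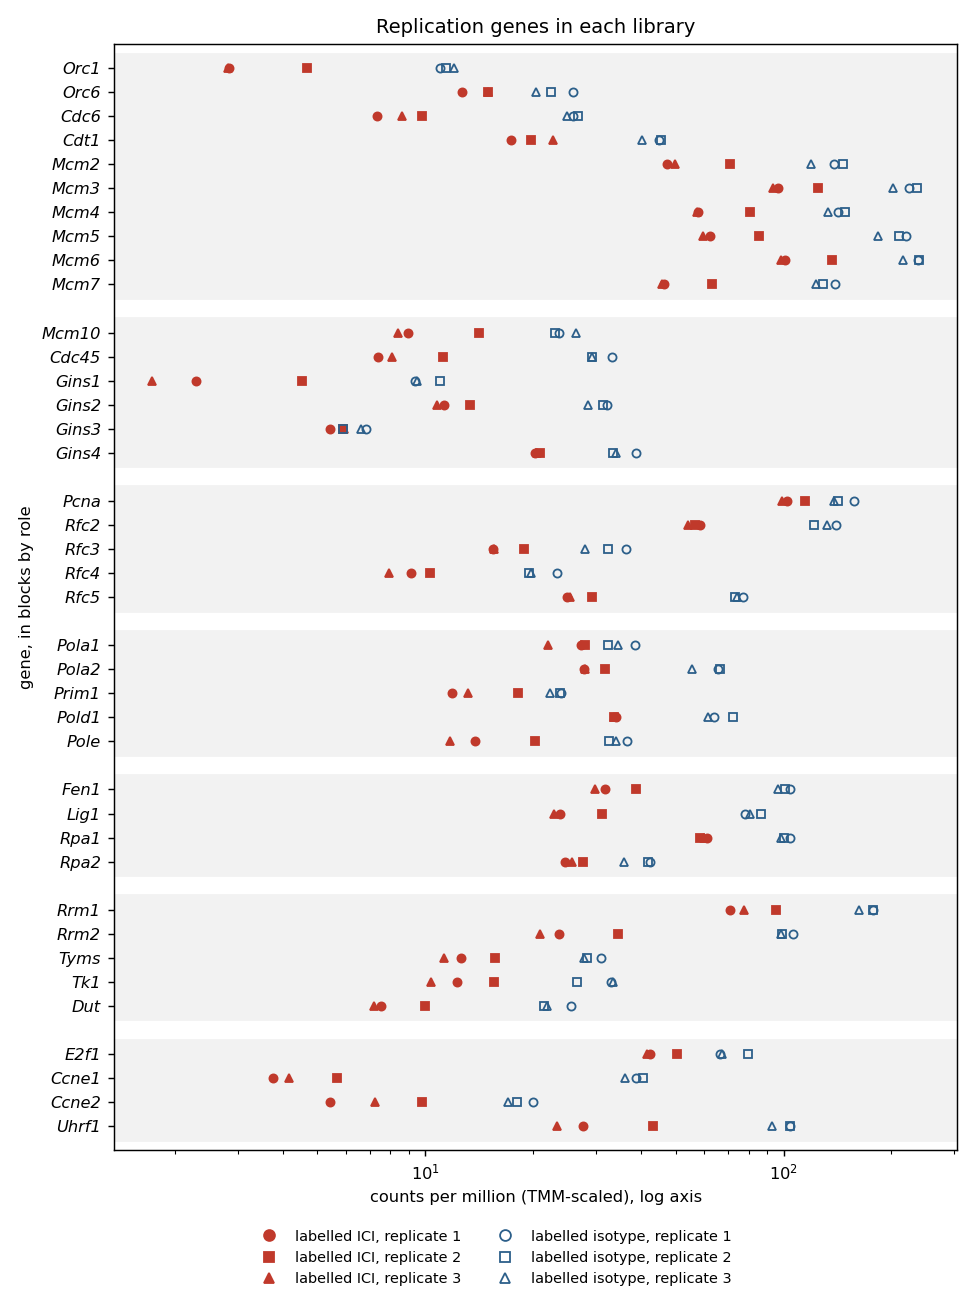
Level of each of the 39 replication genes in each library, in TMM-scaled CPM on a log axis, with genes in blocks by role; filled red symbols are libraries labelled ICI and open blue symbols libraries labelled isotype. In every gene except Gins3, all red symbols lie to the left of all blue symbols.

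**Figure D2:**
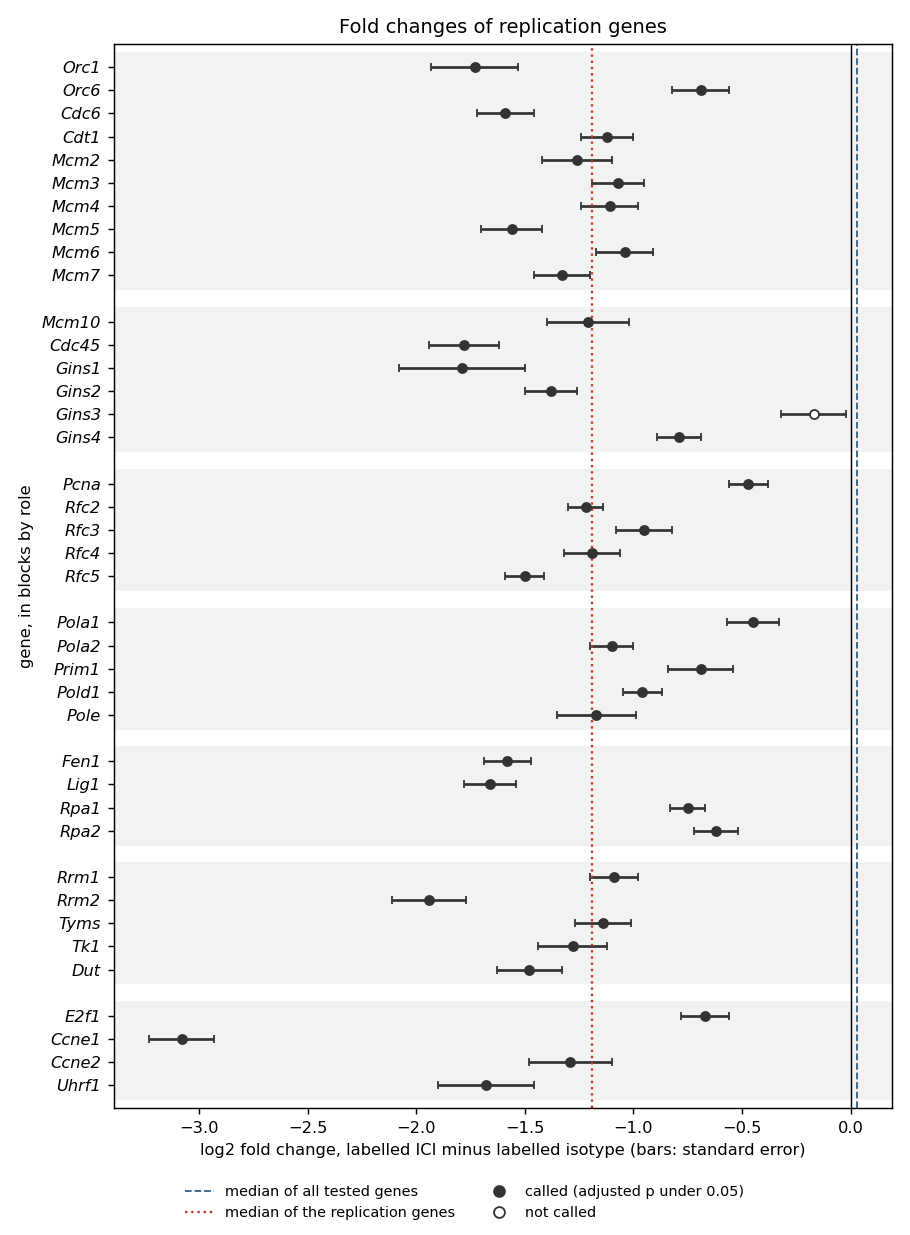
Log2 fold change of each replication gene (labelled ICI minus labelled isotype) with its standard error from the edgeR fit on 3 libraries a group; filled points were called, the open point (Gins3) was not. The dashed line marks the median of all tested genes (0.03) and the dotted line the median of the 39 genes (-1.19).

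Promoters of replication genes are known sites of E2F control, so the letters TTTCCCGC, TTTCGCGC, TTTGCCGC and TTTGGCGC, the classical E2F consensus, were searched on both strands. RefSeq windows on GRCm38.p6, from 250 bases before to 50 bases after the annotated start, were matched for 32 members. E2F letters occurred in 13 of the 32 (40.6%), namely Orc1, Cdc6, Cdt1, Mcm3, Mcm5, Mcm6, Mcm7, Gins3, Rfc3, Pola1, Pold1, Lig1 and Uhrf1, against 704 of 27025 genes with a window (2.6%). CCAAT, the letters of the NF-Y box, occurred in 19 of the 32 (59.4%) against 41.1% of all genes with a window. TTTGAA or TTCGAA, the cell cycle homology region of genes of late cycle phases, occurred in 6 of the 32 (18.8%) against 21.7%. These backgrounds hold every gene with a window, whether or not it was tested here, while all members were tested. Shares over tested genes alone were not computed. A match describes letters in a window and not binding. The 4 windows below are shown because they belong to a helicase subunit and a loader that were called lower (Mcm5 and Cdc6), to the member that was not called (Gins3) and to the member with the greatest fold change (Ccne1). Mcm5 lies on the plus strand at chr8:75109259-75109558, Cdc6 on the plus strand at chr11:98907901-98908200, Gins3 on the plus strand at chr8:95633309-95633608 and Ccne1 on the minus strand at chr7:38107441-38107740. Each is written 5′ to 3′ along its gene, and capitals mark E2F letters.
Mcm5: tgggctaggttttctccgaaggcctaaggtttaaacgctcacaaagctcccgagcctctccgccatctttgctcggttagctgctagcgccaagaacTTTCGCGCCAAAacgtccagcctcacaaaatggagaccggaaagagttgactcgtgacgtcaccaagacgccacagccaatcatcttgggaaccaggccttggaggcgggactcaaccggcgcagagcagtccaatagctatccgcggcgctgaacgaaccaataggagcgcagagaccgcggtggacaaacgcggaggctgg
Cdc6: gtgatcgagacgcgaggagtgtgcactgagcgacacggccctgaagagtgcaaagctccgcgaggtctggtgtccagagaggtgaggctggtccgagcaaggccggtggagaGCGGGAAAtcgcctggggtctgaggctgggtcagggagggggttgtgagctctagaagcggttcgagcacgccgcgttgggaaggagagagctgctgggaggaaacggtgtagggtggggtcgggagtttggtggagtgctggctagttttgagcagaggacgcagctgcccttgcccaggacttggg
Gins3: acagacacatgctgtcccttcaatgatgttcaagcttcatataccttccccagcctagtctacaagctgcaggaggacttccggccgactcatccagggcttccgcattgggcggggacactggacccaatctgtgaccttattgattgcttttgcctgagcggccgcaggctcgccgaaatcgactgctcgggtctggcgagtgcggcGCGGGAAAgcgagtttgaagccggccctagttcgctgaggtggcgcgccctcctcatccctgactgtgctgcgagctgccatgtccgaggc
Ccne1: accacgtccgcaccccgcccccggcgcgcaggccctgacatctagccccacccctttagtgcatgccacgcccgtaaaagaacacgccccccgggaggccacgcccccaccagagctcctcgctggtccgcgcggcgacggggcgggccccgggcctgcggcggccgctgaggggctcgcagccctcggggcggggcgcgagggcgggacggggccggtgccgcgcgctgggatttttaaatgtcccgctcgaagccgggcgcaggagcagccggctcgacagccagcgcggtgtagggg
Mcm5 held a pair of overlapping matches on opposite strands, starting 153 and 149 bases before the start site. In Cdc6 the match began 138 bases before the start and in Gins3 41 bases before it, with the same 8 letters, GCGGGAAA, in both. The Ccne1 window held none of the searched E2F letters. Gins3, whose level did not pass the test, carried the letters, and Ccne1, with the greatest fold change, did not carry them in this window. Whether fold change goes with these letters over the members was not tested.

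Origin licensing genes were all called lower, 10 of 10, with a median log2 fold change of -1.19. Orc1 (ENSMUSG00000028587), the origin recognition subunit that varies with the cell cycle, was 2.84, 4.69 and 2.82 CPM in ICI libraries 1 to 3 and 11, 11.4 and 12 CPM in isotype libraries 1 to 3. The groups did not overlap, and the mean was 3.45 ± 1.07 CPM against 11.4 ± 0.484 CPM (SD, n = 3 each), 3.31-fold lower in ICI (a log2 fold change of -1.73 with an SE of 0.20; edgeR adjusted p = 3.75e-05). Cdc6, the ATPase that helps load the ring, was 7.35, 9.77 and 8.59 CPM against 25.9, 26.7 and 24.8 CPM. Its 3.01-fold decrease had an edgeR adjusted p of 3.04e-06. Cdt1, which escorts the ring to the origin, was 17.4, 19.8 and 22.8 CPM against 45.0, 45.6 and 40.2 CPM, 2.18-fold lower. Orc6, the smallest origin recognition subunit, fell least of the 10, from 25.9, 22.5 and 20.4 CPM to 12.7, 15.0 and 15.0 CPM (1.61-fold, edgeR adjusted p = 0.000786).

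The other origin recognition subunits, which are not members, had log2 fold changes nearer to 0 than Orc1 and Orc6. Orc2 was 18.5, 20.3 and 19.7 CPM in the ICI libraries against 25.9, 25.3 and 20.6 CPM, a log2 fold change of -0.30 that passed the test in edgeR (adjusted p = 0.0422). It missed the threshold in DESeq2 (adjusted p = 0.0686), in limma-voom (0.0512), with a replicate block (0.0533), and with any of 5 of the 6 libraries left out (0.0544 to 0.13, every library except isotype replicate 3). Orc2 was nearer to 0 with upper-quartile factors (-0.11, edgeR adjusted p = 0.386) and library totals alone (-0.09, 0.494). It was also not called with the stricter filter (-0.21, edgeR adjusted p = 0.116) or against a 1.5-fold threshold. Orc3 (log2 fold change -0.20, edgeR adjusted p = 0.0809) and Orc4 (-0.11, 0.357) were not called, and their signs depended on the scaling: under library totals alone they were 0.00 and 0.09. Orc3 was called without isotype replicate 3 (-0.30, edgeR adjusted p = 0.0199). Orc5 was called higher, with 23.9, 24.4 and 28.2 CPM against 18.6, 16.6 and 17.5 CPM (log2 fold change 0.54, edgeR adjusted p = 0.00131).

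All 6 subunits of the Mcm2 to Mcm7 ring were called lower, between 2.06-fold (Mcm6) and 2.95-fold (Mcm5). Mcm5 (ENSMUSG00000005410) was 62.4, 85.3 and 59.8 CPM against 220, 210 and 183 CPM, or 69.2 ± 14.0 against 204 ± 19.1 CPM (SD, n = 3 each; log2 fold change -1.56, SE 0.14, edgeR adjusted p = 1.37e-05). Mcm6, with 101, 137 and 98.1 CPM against 237, 239 and 216 CPM, had the smallest decrease of the ring (log2 fold change -1.04, SE 0.13). Between them lay Mcm7 (2.52-fold), Mcm2 (2.4-fold), Mcm4 (2.16-fold) and Mcm3 (2.1-fold). In each of these genes the second ICI library was the highest of its group and still lay below all isotype libraries. Per kilobase of transcript, which allows levels of different genes to be compared, Mcm3 was the most abundant ring gene at 34.6 ± 5.72 CPM per kb in the ICI and 72.8 ± 5.75 CPM per kb in the isotype libraries. Mcm2, at 16.6 ± 3.82 CPM per kb, had the lowest mean of the ring in the ICI libraries. Mcm7 (17.5 ± 3.36) and Mcm4 (18.2 ± 3.70) followed, and Mcm2 lay below both in each ICI library. These SDs describe the spread between libraries that the genes share, so they do not measure gaps between genes, which were not tested. In the isotype libraries Mcm5 was second at 60.5 ± 5.64 CPM per kb. In each ICI library Mcm5 lay below Mcm6, with means of 20.5 ± 4.15 against 25.7 ± 4.91 CPM per kb.

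Helicase activation genes were called lower in 5 of 6 cases. Cdc45, the helicase component whose recruitment marks origin firing, was 7.39, 11.2 and 8.08 CPM against 33.3, 29.2 and 29.3 CPM, 3.43-fold lower (edgeR adjusted p = 6.17e-06). Mcm10, which acts in the step from loaded ring to moving fork, was 8.98, 14.1 and 8.42 CPM against 23.7, 23.0 and 26.4 CPM, 2.32-fold lower.

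The GINS complex contains 1 product of each of Gins1 to Gins4, and these genes differed in how far they moved. Gins1 was 2.3, 4.53 and 1.73 CPM against 9.36, 11 and 9.47 CPM, 3.45-fold lower with the greatest SE among the members, 0.29 around a log2 fold change of -1.79 (edgeR adjusted p = 0.000556). Gins2 was 2.6-fold lower at 11.3, 13.3 and 10.8 CPM against 32.2, 31.4 and 28.4 CPM, and Gins4 was 1.73-fold lower at 20.2, 20.9 and 20.5 CPM against 38.7, 33.5 and 34.0 CPM. Gins3 (ENSMUSG00000031669) was 5.43, 5.88 and 5.93 CPM in the ICI libraries and 6.83, 5.9 and 6.6 CPM in the isotype libraries. Its groups overlapped, with 5.75 ± 0.277 against 6.44 ± 0.48 CPM (SD, n = 3 each; log2 fold change -0.17, SE 0.15, edgeR adjusted p = 0.329). The counts behind Gins3 were 130 to 193 per library, and its sign turned to 0.01 and 0.04 when libraries were scaled by upper quartiles or totals alone.

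The sliding clamp and clamp loader genes were all called lower, 5 of 5. Pcna (ENSMUSG00000027342), the ring that tethers polymerases to DNA, had the highest level per kilobase of all members, 69.3 ± 5.51 CPM per kb in the ICI and 95.9 ± 6.70 CPM per kb in the isotype libraries. It had the third smallest fold change of the set, 102, 115 and 99.1 CPM against 157, 142 and 138 CPM (1.38-fold lower, log2 fold change -0.47, SE 0.09, edgeR adjusted p = 0.00112). After removal of the trend of fold change with transcript length it was no longer called (-0.20, edgeR adjusted p = 0.0569). Of the loader subunits, Rfc5 was 24.8, 29.2 and 25.4 CPM against 77.0, 73.3 and 74.4 CPM, 2.83-fold lower (edgeR adjusted p = 6.43e-07). Rfc2 and Rfc4 were 2.32-fold and 2.29-fold lower, and Rfc3 was 1.93-fold lower.

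Polymerase and primase genes were called lower, 5 of 5, with the smallest median of any role (log2 fold change -0.96). The polymerase alpha subunits moved unequally. Pola1, which holds the catalytic site, was 27.2, 28 and 22.0 CPM against 38.6, 32.3 and 34.5 CPM (1.36-fold lower, edgeR adjusted p = 0.0067). It missed the threshold when libraries were scaled by upper quartiles or by totals alone (edgeR adjusted p = 0.0651 and 0.0726). Pola2, the accessory subunit, was 27.7, 31.7 and 28 CPM against 65.7, 66.4 and 55.5 CPM (2.15-fold lower, edgeR adjusted p = 9.06e-06). Prim1, the primase that lays the RNA primers, was 1.62-fold lower. Pold1, the catalytic subunit for the lagging strand, was 34.0, 33.7 and 33.7 CPM against 63.9, 72.1 and 61.4 CPM, and Pole, that for the leading strand, was 13.8, 20.3 and 11.7 CPM against 36.6, 32.5 and 34.0 CPM. These were decreases of 1.94-fold and 2.25-fold.

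Lagging-strand and single-strand binding genes were called lower in 4 of 4 cases. Fen1, the nuclease that trims Okazaki fragment flaps, was 31.8, 38.8 and 29.8 CPM against 104, 101 and 96.7 CPM, 3-fold lower (edgeR adjusted p = 1.2e-06). Lig1, the ligase that seals the fragments, was 23.8, 31.2 and 22.9 CPM against 78.3, 86.5 and 80.7 CPM, 3.15-fold lower (edgeR adjusted p = 2.06e-06). Rpa1 and Rpa2, subunits of the single-strand binding protein that also serves repair, fell less, 1.68-fold and 1.54-fold. Rpa1 was 61.1, 58.6 and 59.9 CPM against 104, 100 and 98.1 CPM.

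Deoxynucleotide synthesis genes were called lower in 5 of 5 cases, each by more than 2-fold. Rrm2 (ENSMUSG00000020649), the S-phase small subunit of ribonucleotide reductase, was 23.6, 34.5 and 20.9 CPM against 106, 99.1 and 98.5 CPM. Its mean of 26.3 ± 7.22 against 101 ± 4.15 CPM (SD, n = 3 each) was 3.84-fold lower, a log2 fold change of -1.94 with an SE of 0.17 (edgeR adjusted p = 2.23e-05). The large subunit Rrm1 was 71.1, 95.2 and 77.4 CPM against 178, 178 and 162 CPM, 2.12-fold lower. Thymidylate synthase (Tyms) was 2.2-fold lower at 12.6, 15.7 and 11.3 CPM against 30.9, 28.3 and 27.8 CPM. Thymidine kinase 1 (Tk1), the cytosolic salvage enzyme, was 2.42-fold lower, and Dut, which removes dUTP, was 2.79-fold lower at 7.52, 10.0 and 7.2 CPM against 25.6, 21.5 and 21.9 CPM.

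Among the G1/S control genes, 4 of 4 were called lower. Ccne1 (ENSMUSG00000002068), the cyclin E that drives Cdk2 at S-phase entry, had the greatest fold change of the 39 genes. It was 3.76, 5.68 and 4.17 CPM against 38.7, 40.5 and 36.0 CPM, so that the highest ICI library lay far below the lowest isotype library. The mean was 4.54 ± 1.01 against 38.4 ± 2.3 CPM (SD, n = 3 each), 8.44-fold lower (log2 fold change -3.08, SE 0.15, edgeR adjusted p = 1.91e-07). Its paralogue Ccne2 was 5.43, 9.77 and 7.24 CPM against 20, 18 and 17 CPM, 2.45-fold lower. E2f1, an activator E2F, was 42.3, 50.6 and 41.5 CPM against 66.4, 79.7 and 67.2 CPM, 1.59-fold lower. Uhrf1, which guides DNA methylation to newly copied DNA, was 27.5, 43.2 and 23.3 CPM against 104, 104 and 93.1 CPM, 3.2-fold lower (edgeR adjusted p = 0.000415).

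**Figure D3:**
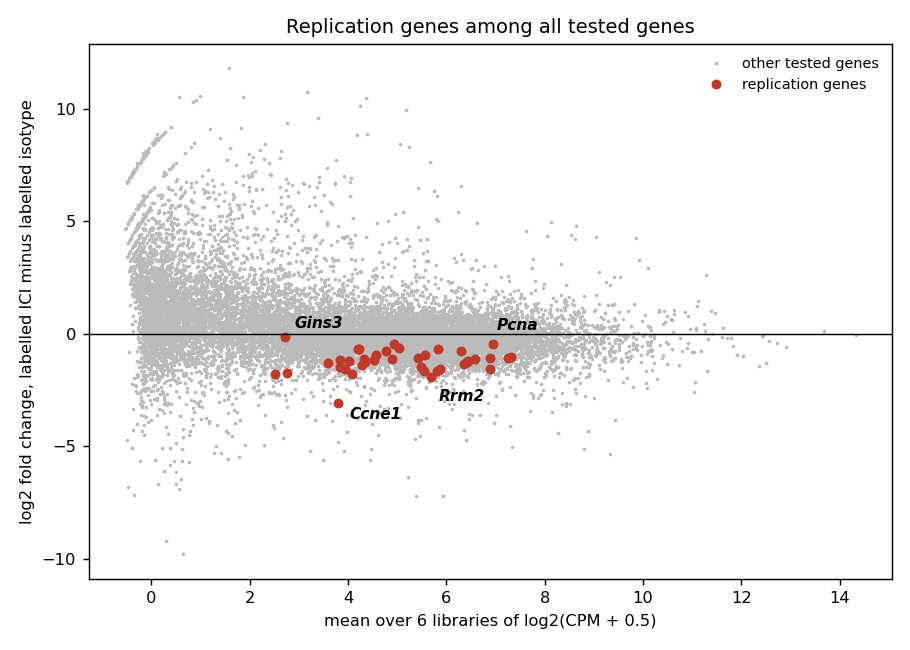
Log2 fold change (labelled ICI minus labelled isotype) of every tested gene against its mean log2 CPM (pseudocount 0.5) over the 6 libraries; the 39 replication genes are red and the other tested genes grey. The red points lie below 0 within a cloud that spreads to both sides, from Gins3 at -0.17 to Ccne1 at -3.08.

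The fold changes of the members had almost no relation to transcript length (Spearman rho -0.01 over 39 genes), while over all genes with a length rho was 0.23 (14227 genes). Against mean level rho was 0.23 over the members and -0.35 over all tested genes. These are descriptions across genes that share the same 6 libraries.

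The rest of the pathway was read from 118 other listed genes, of which 117 were tested: 74 were called lower, 20 higher and 23 were not called; the median of their log2 fold changes was -0.55. The shares over all tested genes were 33.9% lower and 35.0% higher. Of 32 other replisome and origin genes, 26 were called lower, with 5 not called and only Orc5 higher. Gmnn, which encodes geminin, the inhibitor of Cdt1, was 8.98, 13.7 and 8.25 CPM against 35.1, 30.7 and 30.6 CPM, 3.11-fold lower (edgeR adjusted p = 4.59e-05). Dna2, a nuclease and helicase of flap processing, was 22.3, 24.2 and 15.7 CPM against 59.2, 61.3 and 57.3 CPM, 2.86-fold lower. The fork protection gene Timeless was 2.13-fold lower, at 14.3, 14.1 and 15.1 CPM against 32.0, 29.8 and 30.6 CPM. The polymerase delta subunits Pold2 and Pold4 had log2 fold changes of -1.25 and -1.07.

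Nucleotide metabolism genes outside the members were mostly called lower. Of 28 genes, 21 were called lower and 4 higher, with 3 not called. Among all tested genes 33.9% were called lower and 35.0% higher, so the share called higher here lies below the background. The lower group included Nme1, a nucleoside diphosphate kinase (51.7, 55.9 and 48.5 CPM against 139, 137 and 101 CPM, 2.41-fold), and the folate enzymes Mthfd1 (1.94-fold) and Shmt2 (1.76-fold). Samhd1, the phosphohydrolase that degrades deoxynucleotides, was also lower, at 419, 600 and 335 CPM against 1363, 1470 and 1114 CPM (2.91-fold, edgeR adjusted p = 0.000556). The 4 higher genes were Rrm2b, Tk2, Dguok and Slc29a1. Rrm2b, the p53-inducible small subunit that serves cells outside S phase, was 11.9, 19.7 and 18.8 CPM against 7.23, 7.27 and 7.56 CPM, 2.28-fold higher with an SE of 0.19 around the log2 fold change of 1.19 (edgeR adjusted p = 0.000286). Tk2 and Dguok encode the mitochondrial deoxynucleoside kinases. Tk2 was 55.8, 45.1 and 54.4 CPM against 27.2, 26.6 and 29.5 CPM (1.87-fold higher, edgeR adjusted p = 3.92e-05) and Dguok had a log2 fold change of 0.39 (edgeR adjusted p = 0.00764). Slc29a1, a nucleoside transporter of the cell surface, had a log2 fold change of 0.87.

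Of 22 regulators of G1, 12 were called lower and 7 higher, where 33.9% of all tested genes were called lower and 35.0% higher; the share called higher was near that background. E2f4, usually a repressor, was 57.2, 56.5 and 65.2 CPM against 127, 138 and 121 CPM (2.16-fold lower), and the activator E2f2 was 2.32-fold lower. E2f5, another repressor E2F, was higher, at 15.2, 14.4 and 16.1 CPM against 7.27, 6.26 and 6.39 CPM (2.29-fold, edgeR adjusted p = 2.04e-05). Cables1, which promotes inhibitory phosphorylation of cyclin-dependent kinases, was 36.8, 24.1 and 32.5 CPM against 7.93, 7.01 and 4.92 CPM, 4.72-fold higher. Cyclin A2 (Ccna2), the partner of Cdk2 in S phase, was 23.8, 42.1 and 28.1 CPM against 65.4, 62.4 and 69.9 CPM, 2.1-fold lower (edgeR adjusted p = 0.00168). Cyclin D1 (Ccnd1), a mitogen-induced G1 cyclin, was 61.5, 112 and 50 CPM against 30.9, 38.1 and 42.9 CPM, a log2 fold change of 1.00 with an SE of 0.33 (edgeR adjusted p = 0.0397). The Ccnd1 call was lost in limma-voom (adjusted p = 0.0546) and with ICI replicate 1 or any of the isotype replicates left out (0.0523 to 0.113). It was also lost with no filter (edgeR adjusted p = 0.115), with the length trend removed (0.0512) and against a 1.5-fold threshold (0.153). With single libraries left out its log2 fold change ran from 0.58 to 1.23.

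Of 13 cell cycle inhibitors, 12 were tested, none was called lower, 5 were called higher and 7 were not called. With 35.0% of all tested genes called higher, the count of higher inhibitors is near the background and is no result about the list. Cdkn1c, which encodes the kinase inhibitor p57, was 9.52, 7.67 and 7.45 CPM against 0.514, 0.749 and 0.821 CPM, 11.7-fold higher (edgeR adjusted p = 1.06e-06). Btg2, an antiproliferative gene, was 1207, 1001 and 970 CPM against 427, 453 and 411 CPM, 2.46-fold higher. Cdkn2b, which encodes an inhibitor of the cyclin D kinases, was 1.46, 1.47 and 1.68 CPM against 0.147, 0.264 and 0.0342 CPM. The lowest of these values rests on 1 count, and the log2 fold change of 3.42 became 4.04 without isotype replicate 2. Ccng2 was 1.56-fold higher. Cdkn1a, which encodes p21, was 569, 625 and 629 CPM against 555, 559 and 480 CPM and was not called (log2 fold change 0.19, edgeR adjusted p = 0.0882), but it was called higher under 5 alternatives. These were upper-quartile factors (0.38, edgeR adjusted p = 0.00411), library totals alone (0.40, 0.00296), the stricter filter (0.28, 0.0187) and removal of the length trend (0.29, 0.0174) or the GC trend (0.38, 0.00565). Cdkn1b was not called (log2 fold change 0.18, edgeR adjusted p = 0.412).

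Checkpoint, chromatin and repair genes of S phase were called lower in 15 of 23 cases and higher in 3. All tested genes were called lower in 33.9% of cases and higher in 35.0%. The 4 genes with the smallest p in this list belong to the handling of newly copied chromatin. That does not hold for the list's histone genes as a whole. Asf1a (log2 fold change -0.13, edgeR adjusted p = 0.448), Nasp (0.04, 0.709) and Slbp (0.07, 0.412) were not called. Chaf1b, a subunit of the assembly factor that places histones behind the fork, was 7.23, 10.6 and 8.67 CPM against 38.1, 36.1 and 31.6 CPM, 3.99-fold lower (edgeR adjusted p = 2.03e-06). Its partner Chaf1a was 2.58-fold lower, the histone chaperone Asf1b was 2.51-fold lower and the maintenance methyltransferase Dnmt1 was 1.99-fold lower.

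Both general markers of dividing cells that were read had fold changes nearer to 0 than the median member. Genes of mitosis were not read as a set, so these markers do not stand for division as a whole. Mki67, a marker of cycling cells that peaks after S phase, was 62.1, 85.9 and 58.6 CPM against 79.2, 70.4 and 101 CPM. Its groups overlapped and it was not called (68.9 ± 14.9 against 83.5 ± 15.7 CPM, SD, n = 3 each; log2 fold change -0.28, SE 0.18, edgeR adjusted p = 0.203). Without ICI replicate 2 Mki67 was called lower (-0.47, edgeR adjusted p = 0.0238), as it was after removal of the length trend (-0.68, 0.01). Mki67 was not called under the other alternatives, and over all of them its log2 fold change ran from -0.68 to -0.02. Top2a, the topoisomerase of G2 and mitosis, was 61.1, 83.5 and 62.7 CPM against 111, 99.5 and 126 CPM, 1.62-fold lower (edgeR adjusted p = 0.00145).

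Ratios within a library compare genes without dependence on library scaling. The 6 ratios of counts per kilobase were chosen after the values were seen, and for each the exact two-sided permutation test gave p = 0.1, the smallest that 3 against 3 libraries allow (0.1 after adjustment over the 6). In all 6, every ICI library lay below every isotype library. The numerator has the shorter transcript in each pair, and fold change rose with transcript length over all tested genes (Spearman rho 0.23). The ratios were not repeated with that trend removed, and its part in them was not tested. Rrm2 to Rrm2b, the S-phase over the p53-inducible reductase subunit, was 4.1, 3.65 and 2.32 in the ICI libraries and 30.5, 28.3 and 27.1 in the isotype libraries. Its means were 3.36 ± 0.928 and 28.6 ± 1.71 (SD, n = 3 each). The cytosolic to mitochondrial thymidine kinase ratio, Tk1 to Tk2, was 0.369, 0.578 and 0.318 against 2.02, 1.67 and 1.89, so that the more abundant transcript per kilobase was Tk2 in each ICI library and Tk1 in each isotype library.

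Ccne1 to Ccne2 was 1.04, 0.874 and 0.865 against 2.92, 3.38 and 3.18, and Orc1 to Orc2 was 0.182, 0.273 and 0.169 against 0.501, 0.53 and 0.686. Mcm5 to Mki67 was 2.99, 2.96 and 3.04 in the ICI libraries, a mean of 3.00 ± 0.0419, against 8.26, 8.88 and 5.4 in the isotype libraries, a mean of 7.51 ± 1.86 (SD, n = 3 each). Rrm2 to Rrm1, the reductase subunits, was 0.604, 0.661 and 0.492 against 1.08, 1.01 and 1.11.

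**Figure D4:**
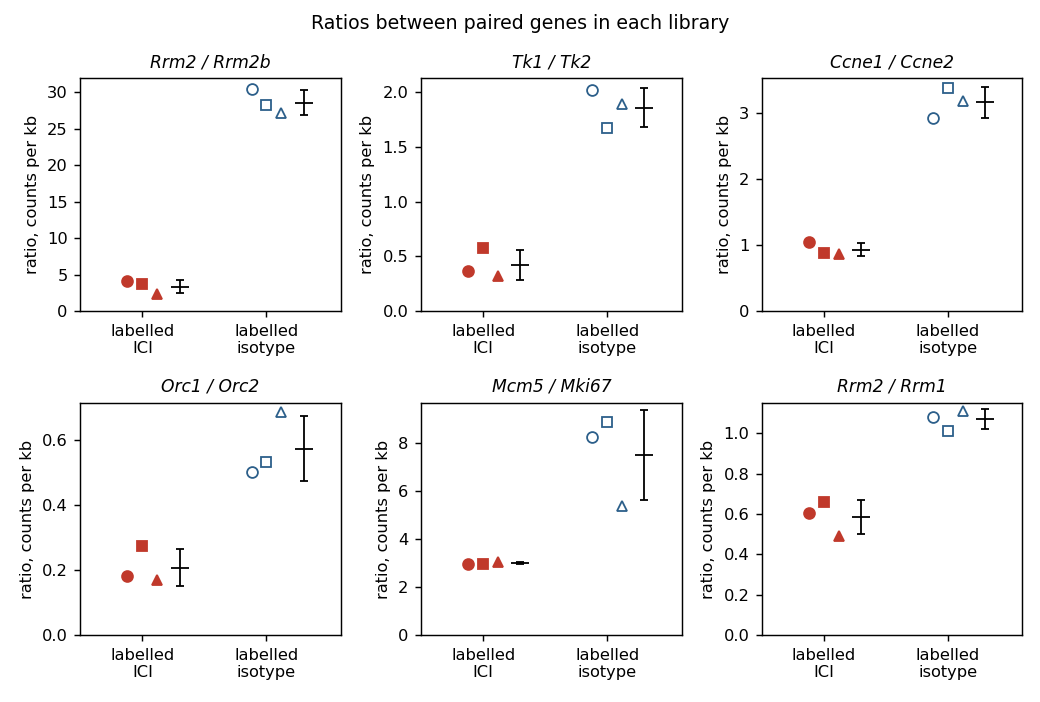
Ratios of counts per kilobase between pairs of genes in each library (symbols by replicate, filled red for libraries labelled ICI, open blue for libraries labelled isotype), with the mean and SD of the 3 libraries in black. In each of the 6 panels all ICI values lie below all isotype values, with Rrm2 to Rrm2b at 2.32 to 4.1 against 27.1 to 30.5.

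Within the ICI group the libraries were not alike. The members' summed CPM was 1179, 1479 and 1161 in ICI libraries 1 to 3 and 2946, 2890 and 2674 in isotype libraries 1 to 3. The second ICI library was the highest of its group in 34 of the 39 genes, and the median member lay 0.25 above its group mean on the log2 scale, against -0.11 and -0.12 in the others. In the isotype group the median deviations were 0.07, 0.00 and -0.07. The summed monocyte markers were also highest in the second ICI library, at 695, 781 and 491 CPM for libraries 1 to 3. Ptprc was highest there too, at 1175, 1341 and 1126 CPM. In isotype libraries 1 to 3 the summed monocyte markers were 6900, 8960 and 4108 CPM, while the members' sum was highest in the first. The part of the monocyte content in this spread was not tested. Leaving out the second ICI library moved the members' median to -1.29 and left all 38 calls in place.

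**Figure D5:**
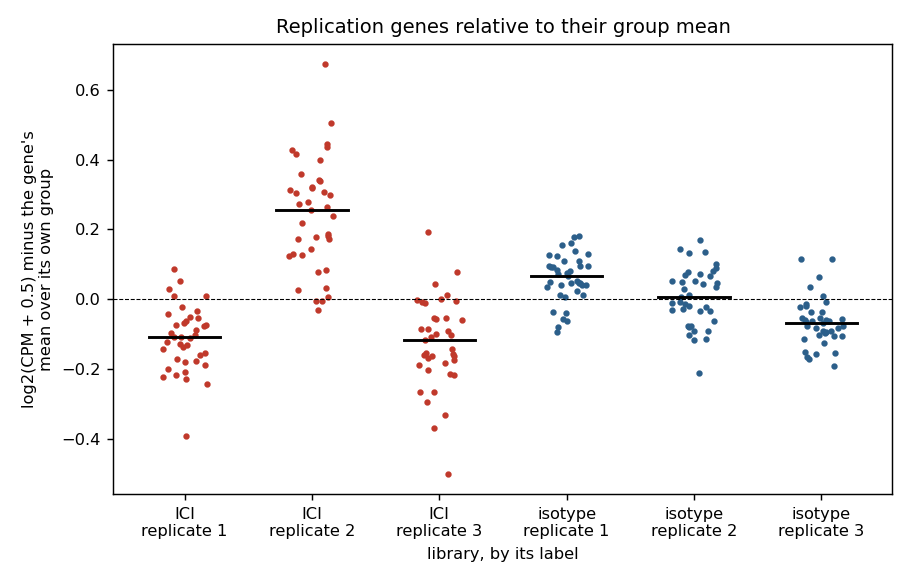
Deviation of each replication gene in each library from the gene's mean over its own group, on the log2(CPM + 0.5) scale; each dot is 1 of the 39 genes and the black bar is the median. The second ICI library sits above the others of its group, with a median of 0.25.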

How the data were processed

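The authors deposited 1 table of raw read counts per gene for the 6 libraries, and its values are whole numbers. Per the labels, a low-input SMART-seq kit that keeps no strand was used, so antisense reads cannot be separated. Per the submitters' processing notes, the genome build was GRCm39 and the tools included Salmon 1.10.1 and STAR 2.7.10a, with no roles given. Symbols were attached to 91.3% of the identifiers from a gene name table. Genes were kept by filterByExpr (minimum count 10), scaled by TMM and tested with edgeR 4.0.16 (robust quasi-likelihood F test, R 4.3.3), with Benjamini-Hochberg adjustment over 14575 genes, which hold 99.9% of the counts. Library totals limit precision for the weakest members. The script was tested on simulated data in which only a small part of the genes changed. In these data 68.9% were called, so that simulation does not cover this setting. CPM per kb divides by the longest annotated transcript.

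The members and lists were chosen with earlier results of these data known. Named genes are all members and up to 4 of the smallest p in each pathway list. A fixed set was also named (Mki67, Top2a, Ccna2, Ccnd1, Cdkn1a, Cdkn1b, Rrm2b, Samhd1, Gmnn). Orc2 to Orc5, Dguok, Slc29a1, Asf1a, Nasp, Slbp and Nos2 were chosen after their values were seen. Marker lists covered 15 cell types, of which the macrophage list had 3 of 8 markers higher and 2 lower. Of the remaining lists, neutrophil markers were called higher for 2 of 6 and lower for 1, conventional dendritic cell markers higher for 4 of 5 and lower for 1, plasma cell markers higher for 2 of 4 and lower for 1, and natural killer cell markers higher for 5 of 5. T cell markers were tested for 4 of 7 genes, with 2 higher and 1 lower. Mast cell (3 of 4), cardiomyocyte (4 of 4), fibroblast (3 of 3), endothelial (2 of 3) and erythroid markers (2 of 2 tested) were higher where called. These counts stand beside 35.0% of all tested genes called higher and 33.9% lower. The macrophage and neutrophil shares called higher are near that background and are no result about those lists. Alternatives were DESeq2 1.42.0, limma 3.58.1 voom, other scalings and filters, glmTreat, trends removed, a replicate block, libraries left out and, added after the data were seen, the legacy quasi-likelihood fit.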

Additional observations from a re-analysis of the deposited data

How the results depend on the processing

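The count of 38 members called lower stayed at 38 under DESeq2, limma-voom, DESeq2-type scaling factors, no filter, the stricter filter, GC trend removal, the legacy fit and each single library left out. It was 37 with upper-quartile factors, with library totals alone and with the length trend removed, and 32 against a 1.5-fold threshold (glmTreat). No member was called higher under any of the 19 alternatives. The members' median of -1.19 moved to -1.01 with upper-quartile factors and -0.99 with library totals alone, and ran from -1.29 to -1.10 over the 6 libraries left out in turn. Members called lower by more than 2-fold numbered 28, then 20 and 19 under those scalings, and 26 to 30 with a library left out. Against a 1.5-fold threshold 45 other pathway genes were lower and 9 higher, in place of 74 and 20; this test asks for a greater change by construction. Gins3 turned to 0.01 (upper quartiles, edgeR adjusted p = 0.938) and 0.04 (totals alone, 0.846). Orc4 turned to 0.07 and 0.09 under the same scalings, and Orc3 to 0.00 under totals alone; the cause of these reversals was not tested. Orc4 was called with the GC trend removed (-0.62, edgeR adjusted p = 0.000281). Same-numbered libraries correlated at 0.03, 0.06 and 0.13 in their deviations from the group mean, and other pairs at -0.14 to 0.09. Not every library correlated best with its own number. With 3 libraries a group, these values cannot decide whether replicate numbers mark a pairing. With the replicate block 38 members were lower, their median was -1.20, and 76 other pathway genes were lower and 19 higher. Over members and alternatives, 730 values kept direction and side of the threshold, 9 lost the call and 2 reversed. Depth limits Gins1 most among the members called, with a lowest count of 41.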
